A study of Mus musculus with 37 samples.

Results

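Expression of 10 genes of the circadian clock, out of 24657 gene symbols on the array, was described in brown adipose tissue (BAT). They were chosen by symbol and fall into 2 arms that are known to peak at opposite times of day. *Arntl*, *Npas2* and *Clock* form the activator arm, and *Dbp*, *Tef*, *Per1*, *Per2*, *Per3*, *Nr1d1* and *Nr1d2* form the arm of clock-controlled and repressor genes. Each gene was read from the probe set with the highest mean, which left a choice only for *Tef*, with 2 probe sets. All 10 genes lay above the background on average, which was set at the 95th percentile of the olfactory receptor probe sets, a score of 7.94. At the 99th percentile, 8.82, *Tef* with a mean of 8.70 fell below it and 9 genes stayed above.

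Tissue was taken from males on a chow diet, of 35 BXD strains (recombinant inbred lines from C57BL/6J and DBA/2J) and of both parental strains. Mice were about 29 weeks old and had been fasted from 6 pm to 9 am, and the RNA of about 5 animals per strain was combined and hybridised to 1 Affymetrix MoGene 2.0 array. An array therefore holds a strain mean with no replicate within a strain, and neighbouring strains in the order of any gene cannot be separated by a replicate error. The labels give neither the hour at which each strain was killed nor an array batch, so time of day and genotype cannot be told apart. Values are scores in units of the deposited scale, on which every array has a mean of 8 and a standard deviation (SD) of 2. Where a fold is given it is nominal, since it takes 1 unit as a doubling. The brown fat genes *Ucp1* and *Cidea* had means of 15.4 and 14.7, and in bulk tissue fewer cells of a type and less RNA per cell cannot be told apart.

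In the mammalian clock, the protein of *Arntl* (BMAL1) pairs with CLOCK or with NPAS2 and activates genes through E-box elements, among them the *Per*, *Nr1d* and *Dbp* genes. The PER proteins then repress that pair, and the receptors encoded by *Nr1d1* and *Nr1d2* (REV-ERBα and REV-ERBβ) repress *Arntl* through response elements for nuclear receptors. DBP and TEF bind a further element, the D-box, which the repressor NFIL3 also binds. In tissues with a running clock *Arntl* transcript is therefore low when *Dbp*, *Per* and *Nr1d* transcripts are high.

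Promoter windows of RefSeq (GRCm38.p6, 250 bases before to 50 after each start) were present for 9 of the 10 genes, in 14 windows. Stretches that hold one of these elements are shown, except those around the core receptor element AGGTCA in *Clock* and *Per1*. Capitals mark the match, which was sought on both strands. *Arntl* held 2 matches to AGTAGGTNA, a longer receptor element that was added to the search after its windows had been read. Such a match occurs in 0.591% of the 32851 windows in the table. The first began 39 bases after the upstream of its 2 starts and the second 29 bases after the other. The second overlaps the core receptor element AGGTCA, which 16.3% of windows hold.
Arntl, chr7:113207485-113207514, plus strand: ggagcggattggtcggaaAGTAGGTTAgtg
Arntl, chr7:113207529-113207558, plus strand: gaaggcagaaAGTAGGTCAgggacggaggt

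*Per3* held 2 copies of the D-box TTATGTAA, beginning 205 and 158 bases before its start. The D-boxes searched, TTATGTAA and TTACGTAA, occur in 1.06% of windows, and 2 or more copies in 8 windows or 0.0244%.
Per3, chr4:151044806-151044880, minus strand: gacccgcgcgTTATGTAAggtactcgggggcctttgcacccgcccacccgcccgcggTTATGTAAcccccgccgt

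The E-box CACGTG, present in 7.15% of windows, was found at both starts of *Tef* and at 1 start of *Per1*. The core receptor element was also found in *Clock*, *Per1* and *Nr1d2*, of which the copy in *Nr1d2* began 77 bases before the start. The windows of *Npas2*, *Dbp* and *Nr1d1* held none of these letters, and *Per2* had no window.
Tef, chr15:81802529-81802568, plus strand: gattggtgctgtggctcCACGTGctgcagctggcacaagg
Tef, chr15:81811259-81811298, plus strand: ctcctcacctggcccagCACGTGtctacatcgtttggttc
Per1, chr11:69098766-69098805, plus strand: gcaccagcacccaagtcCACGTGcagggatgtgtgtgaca
Nr1d2, chr14:18239161-18239200, minus strand: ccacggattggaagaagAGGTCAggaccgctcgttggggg

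Of the 10 clock genes, 8 varied over strains by more than the typical transcript, *Tef* by about as much and *Clock* by less. The SD over the 35 BXD strains was between 0.30 and 0.35 units in *Arntl*, *Npas2*, *Dbp*, *Nr1d1*, *Nr1d2* and the 3 *Per* genes. The median SD of all 41155 probe sets was 0.21 units, and that of the 19436 above background 0.19. *Tef* had an SD of 0.19 units, at which 57.9% of all probe sets and 50.0% of those above background were more variable. Only *Clock*, with an SD of 0.13 units (95% interval 0.11 to 0.17, chi-square, n = 35), lay clearly below that middle, and 92% of probe sets were more variable. *Per1* had an SD of 0.35 units (interval 0.28 to 0.46), with 17.5% of probe sets above it. Without BXD90, its lowest strain, the SD was 0.31 units, below the 0.33 of *Per2* over all 35 strains, so the 8 more variable genes have no settled order.

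Among the activators, *Arntl* ran from 9.47 through a median of 10.10 to 10.75. Its range of 1.28 units equals a nominal 2.43-fold difference. BXD55 was lowest, followed by BXD95 at 9.50 and BXD99 at 9.61. BXD61 was highest, with BXD69 at 10.58 and BXD68 at 10.55 behind it. *Npas2*, the paralogue of *Clock*, ran from 8.64 through 9.32 to 10.29 and so had the widest range of the 10 genes, 1.65 units. That width rests on BXD95 at the low end and BXD62 at the high end, without which the range was 1.05 units. The next strains were BXD90 at 8.98 and BXD45 at 9.00 below, and BXD56 at 10.03 and BXD51 at 9.80 above. *Clock* ran from 12.03 in BXD83 through 12.31 to 12.53 in BXD71, a nominal 1.42-fold difference. Its other low strains were BXD43 and BXD97, at 12.05 and 12.06, and its other high strains BXD68 and BXD96, both at 12.49.

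Of the factors that bind D-boxes, *Dbp* ran from 8.57 in BXD70 through 9.05 to 9.99 in BXD45, a nominal 2.67-fold difference. BXD87 (8.58) and BXD69 (8.73) were also low, and BXD95 (9.81) and BXD55 (9.60) also high. BXD95 and BXD55 were the strains with the least *Arntl*. *Tef* ran from 8.37 in BXD62 through 8.71 to 9.21 in BXD75, with BXD68 and BXD61 both at 8.40 and BXD95 (9.00) and BXD55 (8.95) next to the ends. The second, dimmer probe set of *Tef* had a mean of 7.90, below the background limit, and correlated with the first by r = 0.21 (n = 35), so *Tef* rests on 1 probe set.

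The *Per* genes encode the repressors that close the main loop. *Per1* ran from 10.02 in BXD90 through 11.03 to 11.55 in BXD92. BXD68 (10.42) and BXD101 (10.54) followed at the low end, and BXD50 (11.53) and BXD83 (11.47) at the high end. BXD90 stood apart, and without it and BXD92 the range was 1.12 units in place of 1.53. *Per2* ran from 8.49 in BXD79 through 9.12 to 9.70 in BXD75, with BXD101 (8.56) and BXD87 (8.58) low and BXD71 (9.69) and BXD80 (9.64) high. *Per3* ran from 8.96 in BXD61 through 9.67 to 10.27 in BXD83. BXD69 (9.06) and BXD70 (9.11) were its other low strains, and BXD75 (10.17) and BXD95 (10.04) its other high ones. The 3 *Per* genes therefore had different strains at their ends, apart from BXD101, low in *Per1* and *Per2*, and BXD75 and BXD83, each among the highest in a pair of them.

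The REV-ERB genes shared most of their extreme strains. *Nr1d1* ran from 11.61 in BXD61 through 12.48 to 12.95 in BXD95, with BXD87 (11.65) and BXD70 (11.85) low and BXD55 (12.85) and BXD65 (12.81) high. *Nr1d2* ran from 9.32 in BXD61 through 9.94 to 10.64 in BXD95, with BXD87 (9.36) and BXD68 (9.38) low and BXD45 (10.41) and BXD55 (10.37) high. BXD61, with the highest *Arntl*, was the lowest strain for *Nr1d1*, *Nr1d2* and *Per3*. Levels are not compared between genes here, since each comes from another probe set.

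**Figure D1:**
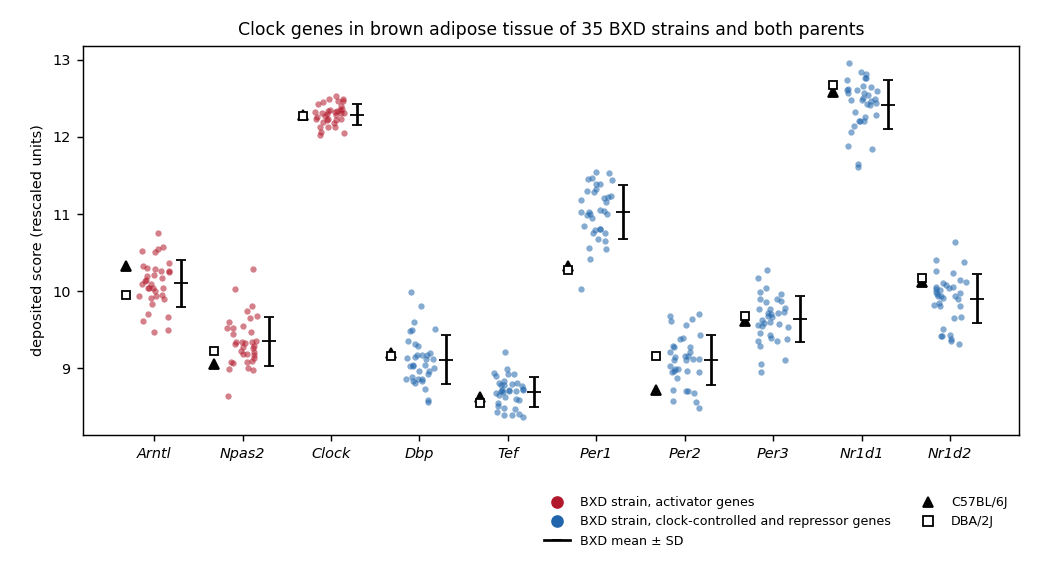
Deposited score (vertical axis, rescaled units) of each clock gene in the 35 BXD strains (points, 1 array each), with the BXD mean ± SD beside them and C57BL/6J (triangle) and DBA/2J (square) to their left. *Clock* has the narrowest cloud (SD 0.13 units), and both parents lie at the lower end of *Per1*, with 34 of 35 BXD strains above them.

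In both parental strains all 10 clock genes lay inside the BXD range, and for most of them the parents were close to each other. *Arntl* was 10.33 in C57BL/6J and 9.95 in DBA/2J, a difference of -0.38 units (DBA/2J minus C57BL/6J), and 19 of 35 BXD strains lay between the parents. *Per2* went the other way, with 8.72 and 9.16, a difference of 0.44 units. Differences at least as large were not rare on the array, since 20.6% of probe sets exceeded that of *Arntl* and 16.7% that of *Per2*. The other 8 genes differed by 0.16 units or less between the parents, *Clock* by -0.01. One array per parent allows no test. The mean of 6 liver genes was 11.1 in DBA/2J and 7.61 in C57BL/6J, and its part in these differences was not tested.

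*Per1* stood out in where the parents lay within the BXD range. It was 10.33 in C57BL/6J and 10.27 in DBA/2J, so that the parents differed by -0.06 units while 34 of 35 BXD strains, all but BXD90, lay above both. Across the array 188 probe sets, 0.457%, had that many BXD strains above both parents. The glucocorticoid-induced genes *Fkbp5*, *Tsc22d3*, *Sgk1* and *Zbtb16*, taken as the mean of these 4 genes, were also toward the low end in the parents, at 9.50 and 9.68 against a BXD range of 9.41 to 10.43 with a median of 9.87. BXD90 was the lowest of the 35 strains in this list, as it was in *Per1*. Low parental values were not particular to the glucocorticoid list. The mean of the immediate early genes *Fos*, *Egr1*, *Junb* and *Nr4a1* was 9.69 and 9.70 in the parents, against a BXD median of 10.2. The fasting genes (3 of 4 found) had a mean of 12.1 in C57BL/6J, below the lowest BXD strain at 12.3. In DBA/2J it was 12.9, near the BXD median of 12.8. What these values share was not tested.

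Across the 35 BXD strains most pairs of genes from different arms were opposed. Of the 21 pairs between an activator and a gene of the other arm, 19 had a Pearson's r below 0, with a median of -0.39. Of the 24 pairs within an arm, 21 had an r above 0, with a median of 0.45. Across arms the exceptions were *Npas2* with *Per1* (r = 0.03) and *Clock* with *Per2* (r = 0.30). Within arms they were *Per1* with *Dbp*, *Nr1d1* and *Nr1d2*, where r was -0.03, -0.11 and -0.02. No exception passed an unadjusted permutation test.

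**Figure D2:**
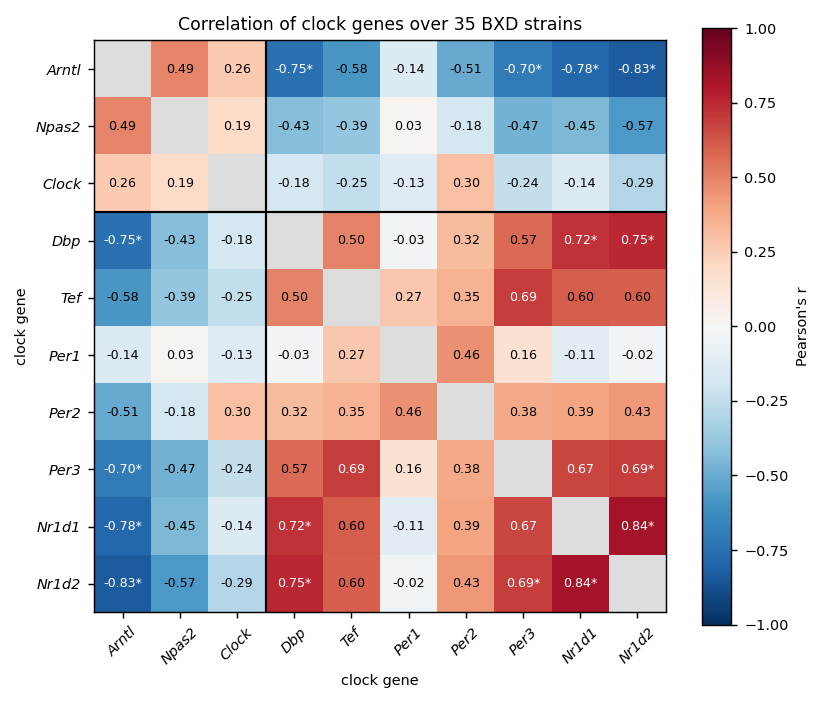
Pearson's r between each pair of clock genes over 35 BXD strains, with black lines between the activator arm (first 3) and the other arm and an asterisk on the 8 pairs that passed the test over all transcripts. The block between the arms is blue except for 2 pairs, while *Per1* and *Clock* have pale rows.

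To set these relations against the rest of the array, each clock gene was used in turn as a continuous covariate for all other 41154 transcripts with limma, and p-values were adjusted over all of them (Benjamini-Hochberg, threshold 0.05). A pair of clock genes was called where each passed in the fit of the other. By this rule 8 of the 45 pairs were called, all among *Arntl*, *Dbp*, *Per3*, *Nr1d1* and *Nr1d2*, which form 10 pairs. Of the 8 pairs, 5 were called whichever strain was left out. *Per3* with *Nr1d2* was not called without BXD61, BXD69, BXD70, BXD87 or BXD95, *Arntl* with *Per3* not without BXD61 or BXD69, and *Dbp* with *Nr1d1* not without BXD87 or BXD95. The pairs not called among these 5 genes were *Dbp* with *Per3* (r = 0.57) and *Per3* with *Nr1d1* (r = 0.67). In unadjusted permutation tests 27 of 45 pairs had a p under 0.05. All 10 pairs among these 5 genes were included, which adds no support, since the genes were picked by calls on the same values. Of all transcripts, 4.87% (*Per2* as covariate) to 13.9% (*Per3*) had an unadjusted limma p under 0.05. The share called after adjustment ran from 0% to 0.654% (*Per3*).

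*Arntl* and *Nr1d2* formed the most strongly opposed pair. Their r was -0.83 and Spearman's rho -0.75 (n = 35, permutation p = 1e-05 for each, two-sided, the smallest that 100000 permutations can give). In the limma fit *Nr1d2* was lower by 0.87 ± 0.10 units (SE) for each unit of *Arntl*, with an adjusted p of 1.6e-05, and none of the 41154 transcripts had a larger absolute r with *Arntl*. Without BXD55 and BXD61, the strains farthest from the median of *Arntl*, r was -0.79. *Nr1d1* followed, with r = -0.78, rho = -0.74 and an r of -0.73 without those strains (adjusted p = 0.00025 in limma).

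*Dbp* with *Arntl* had r = -0.75 and rho = -0.70, with permutation p-values of 1e-05 and 2e-05 over 35 strains. Its limma slope was -0.78 ± 0.12 (SE) with an adjusted p of 0.0018, and r was -0.76 without BXD55 and BXD61. *Per3* had r = -0.70 and rho = -0.69 (adjusted p = 0.016 in limma), and r = -0.65 without those strains. So 4 of the 9 other clock genes, all of the opposite arm and all with a slope below 0, were called with *Arntl*, against 25 of all 41154 transcripts or 0.0607%. Of these 25, 16 (0.0389%) had slopes below 0 and 9 (0.0219%) above 0. The number of all transcripts called depended on single strains, as it was 3 without BXD69, 4 without BXD61, 9 without BXD81, BXD95 or BXD96, 11 without BXD99, and 38 to 54 without BXD48, BXD55, BXD56, BXD62, BXD65, BXD80, BXD87 or BXD103. The calls of *Nr1d1*, *Nr1d2* and *Dbp* as pairs with *Arntl* were made in all 35 repeats with 1 strain left out, and that of *Per3* in 33.

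The other members followed *Arntl* more loosely. *Tef* (r = -0.58) and *Per2* (r = -0.51) were lower in strains with more *Arntl*, and *Npas2* was higher (r = 0.49). Their permutation p-values were 0.00021, 0.0019 and 0.0027 (n = 35), but no pair of theirs with *Arntl* passed the adjustment over all transcripts. Of all transcripts, 0.275% had a larger absolute r with *Arntl* than *Tef*, 1.12% than *Per2* and 1.44% than *Npas2*. *Clock* (r = 0.26) and *Per1* (r = -0.14) did not pass an unadjusted test, with permutation p-values of 0.13 and 0.42, and *Per1* stood in the middle of the array, with 51.2% of transcripts beyond it. The median absolute r with *Arntl* was 0.58 over the 9 other clock genes and 0.14 over all transcripts.

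**Figure D3:**
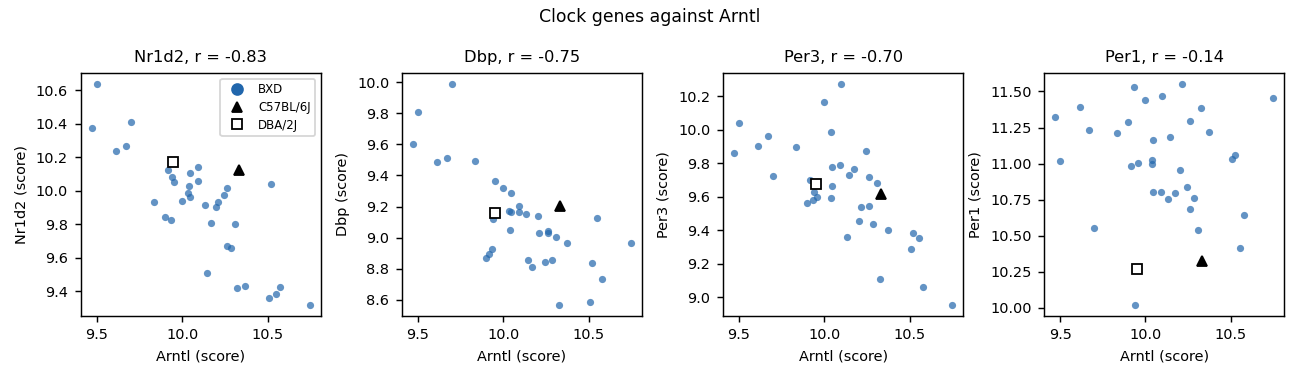
Score of *Nr1d2*, *Dbp*, *Per3* and *Per1* (vertical axes) against that of *Arntl* (horizontal axes), with 1 point per BXD strain (n = 35), C57BL/6J as a triangle and DBA/2J as a square. The first 3 genes are lower where *Arntl* is higher (r = -0.83, -0.75 and -0.70), whereas *Per1* does not follow it (r = -0.14).

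Strains at the ends of *Arntl* showed the opposition gene by gene. In BXD55, BXD95 and BXD99, with the 3 lowest *Arntl* values, *Nr1d2* was 10.37, 10.64 and 10.24, *Nr1d1* 12.85, 12.95 and 12.77, and *Dbp* 9.60, 9.81 and 9.49. In BXD68, BXD69 and BXD61, with the 3 highest, *Nr1d2* was 9.38, 9.42 and 9.32, *Nr1d1* 12.26, 12.15 and 11.61, and *Dbp* 9.13, 8.73 and 8.96. In these genes, and in *Tef*, *Per2* and *Per3*, no value of the first trio overlapped the second. How many of all transcripts keep these trios apart was not computed, so the separation has no background share. *Clock* overlapped, with 12.35 in BXD95 and 12.32 in BXD69. *Npas2* overlapped too, since it was 9.35 and 9.55 in BXD55 and BXD99 but 9.34 in BXD69. *Per1* was 11.33 in BXD55 and 11.46 in BXD61, at opposite ends of *Arntl*. These strains were picked by *Arntl*, so the values are a description.

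**Figure D4:**
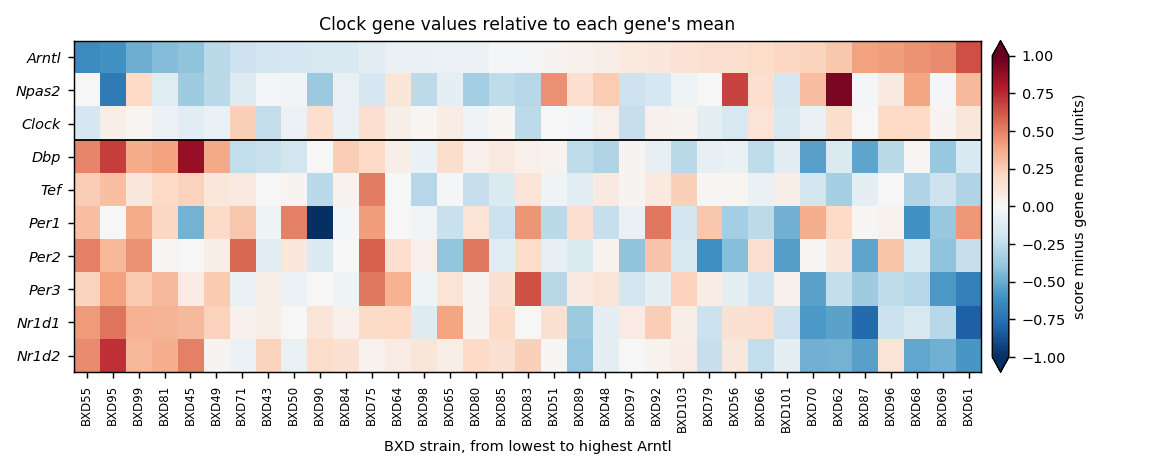
Score of each clock gene minus its mean over the 35 BXD strains (colour, in units), with strains ordered from the lowest *Arntl* (BXD55, left) to the highest (BXD61, right). *Dbp*, *Per3*, *Nr1d1* and *Nr1d2* are mostly red on the left and blue on the right, and BXD90 has the lowest *Per1*, 10.02.

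Within the clock-controlled arm, *Nr1d1* and *Nr1d2*, which encode the paired REV-ERB receptors, were the closest pair of all 45 by Pearson's r. Their r was 0.84 and rho 0.70 (n = 35, permutation p = 1e-05 for each), and r was 0.80 without BXD61 and BXD87. The larger of their 2 adjusted p-values in limma was 9.9e-06. The absolute rho was larger for *Dbp* with *Nr1d1* (rho = 0.76) and for *Arntl* with *Nr1d2* (-0.75) and *Nr1d1* (-0.74). *Dbp* had r = 0.75 with *Nr1d2* and 0.72 with *Nr1d1* (larger adjusted p-values in limma of 0.0030 and 0.0079). *Dbp* as a covariate called 3 of 41154 transcripts (0.00729%), of which 2 (0.00486%) had slopes above 0 and 1 (0.00243%) below 0. All 3 were clock genes, namely *Nr1d2*, *Nr1d1* and *Arntl*. None was called once BXD45 and BXD95, farthest from the median of *Dbp*, were both left out, although r was then still 0.67 with *Nr1d2* and 0.71 with *Nr1d1*.

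*Nr1d1* as a covariate likewise called 3 transcripts (0.00729%), and these were *Nr1d2*, *Arntl* and *Dbp*. *Nr1d2* called 5 (0.0121%), which were *Nr1d1*, *Arntl*, *Dbp*, *Per3* and the D-box repressor *Nfil3*. Only clock genes of the lists used here were thus called with *Dbp*, *Nr1d1* and *Nr1d2*. *Per3* differed, with 269 transcripts called (0.654%), 212 of them with slopes above 0. Among them were *Arntl*, *Nr1d2*, *Tef*, *Nr1d1* and *Dbp*, with adjusted limma p-values from 0.0075 to 0.046. The transcript closest to *Per3* was outside the clock: *Dtx4*, a ubiquitin ligase of the Deltex family, had r = -0.85 and an adjusted p of 2.1e-05 in limma. *Cep70*, *Fam13a*, *Dram2* and *Snx14* came next, with r from 0.72 to 0.76.

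The member nearest to *Tef* was *Per3* (r = 0.69, rho = 0.67, permutation p of 1e-05 and 2e-05, n = 35). That pair passed in the fit of *Per3* (adjusted p = 0.013 in limma) and not in that of *Tef* (0.11). *Tef* as a covariate called no transcript (0%), with 2642 or 6.42% at an unadjusted p under 0.05. *Per2* had r between 0.32 and 0.46 with the other 6 genes of its arm, and also called none (0%), with 2003 or 4.87% unadjusted.

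*Per1* shared little with the other clock genes. Its only relation past an unadjusted permutation test was with *Per2* (r = 0.46, rho = 0.53, permutation p = 0.0054 and 0.0014, n = 35), and r was 0.49 without BXD68 and BXD90. No transcript was called with *Per1* (0%), and 2109, 5.12%, had an unadjusted p under 0.05. Its r with the mean of the 4 glucocorticoid-induced genes was 0.62 (n = 35), and 0.54 without BXD50 and BXD92. That list was not tied to *Per1* alone, since it had r = -0.47 with *Dbp*, -0.39 with *Nr1d1* and 0.38 with *Arntl*, and -0.48, -0.52 and 0.45 without those strains. Singly, *Fkbp5*, which encodes a chaperone that binds the glucocorticoid receptor, had r = 0.59, *Tsc22d3* 0.54, *Zbtb16* 0.41 and *Sgk1* 0.28, with adjusted p-values in limma of 0.49 or more. The immediate early genes *Fos*, *Egr1*, *Junb* and *Nr4a1* gave r = 0.19 as a list. Of the fasting genes, *Pdk4* had r = 0.42 and *Angptl4* 0.15 with *Per1*, with adjusted p-values in limma of 0.96 or more.

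*Npas2* and *Clock*, the alternative partners of BMAL1, also differed. *Npas2* took the place of an activator gene in sign, with r = -0.57 against *Nr1d2*, -0.47 against *Per3*, -0.45 against *Nr1d1* and -0.43 against *Dbp* (permutation p from 0.00039 to 0.011, n = 35). As a covariate *Npas2* called none of the transcripts (0%), and 3033 or 7.37% had an unadjusted p under 0.05. *Clock* had an absolute r of at most 0.30 with any other member, and none of its 9 pairs passed an unadjusted permutation test. It did call 17 transcripts (0.0413%), none a clock gene of either list. *Plxna2*, a semaphorin receptor (r = 0.73), *Sec23a*, a coat protein of vesicles (-0.73), and *Tspan12*, a tetraspanin (0.72), were closest.

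A principal component analysis of the 10 genes, each scaled to an SD of 1, gathered these relations. The first component held 51.1% of the variance, with loadings of -0.40 for *Arntl*, -0.27 for *Npas2* and -0.12 for *Clock* against loadings from 0.23 to 0.41 for the other arm, except *Per1* at 0.06. The second component held 14.7%, with its heaviest loadings on *Per1* (0.63), *Per2* (0.62) and *Clock* (0.37). The first component had an absolute r of 0.33 (n = 35) with the first principal component of all transcripts.

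Other genes of the clock were read from a list of 22, all of which were found, *Ciart* and *Cipc* under older symbols. One of the 22, *Nfil3*, was called with *Arntl*. *Nfil3*, a repressor at D-boxes that REV-ERB is known to repress in turn, ran from 9.40 through 9.82 to 10.42 over strains and had a slope of 0.65 ± 0.12 (SE) units per unit of *Arntl* (r = 0.68, rho = 0.64, adjusted p = 0.021 in limma). It was opposed to *Nr1d2* (r = -0.76, adjusted p = 0.0010) and to *Per3* (r = -0.66, adjusted p = 0.014), and with *Dbp* it had r = -0.67 but an adjusted p of 0.068. The call with *Arntl* was lost without BXD61, BXD69, BXD81 or BXD95.

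The repressor genes of the list took both sides. *Cry1*, which encodes a partner of the PER proteins and is known to peak late, had r = 0.45 with *Arntl* and -0.33 with *Dbp*. *Cry2* had r = 0.03 and 0.23. *Ciart*, *Bhlhe41* and *Bhlhe40*, repressors at E-boxes, had r = -0.53, -0.46 and -0.26 with *Arntl* and 0.49, 0.66 and 0.35 with *Dbp*. Their rho values were -0.39, -0.33 and -0.26 with *Arntl* and 0.30, 0.57 and 0.33 with *Dbp*. None of these 5 passed the adjustment with either gene, the nearest being *Bhlhe41* with *Dbp* (adjusted p = 0.068 in limma). *Cipc* had r = -0.32 with *Arntl*.

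The receptors *Rora* and *Rorb*, which bind the same elements as the REV-ERBs as activators, had r = -0.01 and -0.04 with *Arntl*. *Rorb* had a mean of 7.86, under the background limit, as did *Fbxl21* (7.46) and *Lonrf3* (7.66). *Hlf*, the third factor of the family of *Dbp* and *Tef*, had r = -0.14 with *Arntl* and 0.26 with *Dbp*. The known output genes *Usp2*, *Wee1*, *Nampt* and *Lonrf3* lay between -0.29 and 0.12 with *Arntl*. The kinases and ubiquitin ligases of the clock proteins lay between -0.36 and 0.36, and *Arntl2*, the paralogue of *Arntl*, at -0.38. Over the 22 genes the median r was -0.09 with *Arntl*, 7 of 22 had an unadjusted p under 0.05 there, and 11% of all transcripts did. With *Dbp* none of the 22 was called, 5 had an unadjusted p under 0.05, and 5.88% of all transcripts did.

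**Figure D5:**
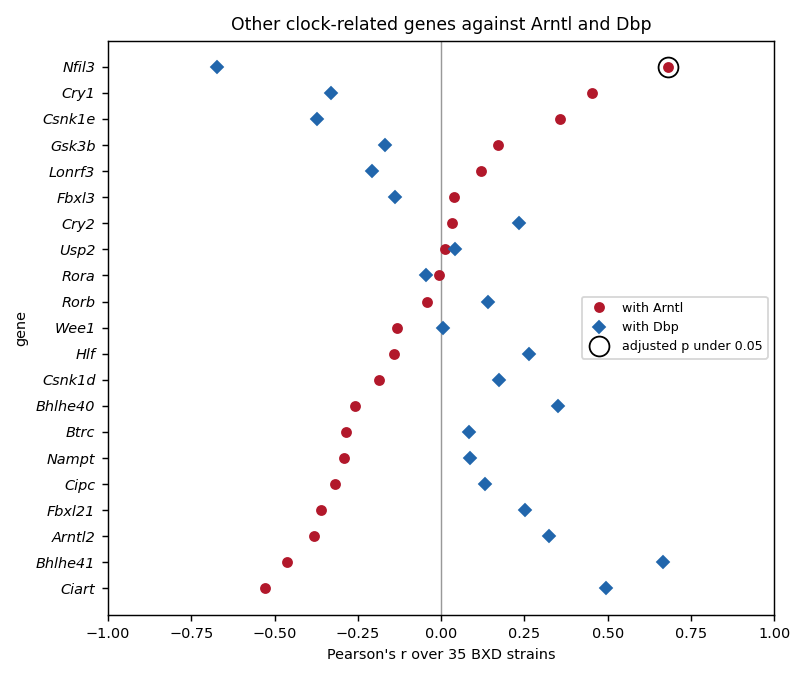
Pearson's r of 21 other clock-related genes with *Arntl* (circles) and with *Dbp* (diamonds) over 35 BXD strains, ordered by the first, with a ring around r values that passed the test over all transcripts. *Nfil3* has the only ring (r = 0.68 with *Arntl*), and *Bhlhe41* and *Ciart* lie farthest toward *Dbp*.

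Outside the clock, the symbols with slopes above 0 that were nearest to *Arntl* by adjusted p were *Lbp*, which encodes a binding protein for lipopolysaccharide, *Dtx4*, *Osgin1*, *Adamts5*, a protease of the matrix, and *Gm4184*. Their adjusted limma p-values were 0.021 to 0.031 and their r values 0.65 to 0.69. The nearest with slopes below 0 were *Agbl3*, a carboxypeptidase, *Ddhd1*, a phospholipase, *Dnajc28*, *Acsm3*, an acyl-CoA synthetase, and *Snx14*, a sorting nexin (r from -0.72 to -0.67, adjusted p from 0.014 to 0.031). *Lep*, the leptin gene and a marker of white fat, was also called (r = 0.64, adjusted p = 0.035). With *Dbp* no symbol outside the clock was called. The nearest were *Evi5* (r = 0.68, adjusted p = 0.073 in limma), *Cish*, *AW549877*, *1700084M14Rik* and *Zfp703* above 0 and *Mir146b*, *Fmo2*, *Vmn1r125*, *Gm4184* and *Osgin1* below 0, the last 9 with an adjusted p of 0.37. *1700084M14Rik*, *Mir146b* and *Vmn1r125* had means under the background limit.

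Markers of white fat moved with some of the clock genes. The mean of 5 white fat genes (*Lep*, *Retn*, *Mest*, *Sfrp5* and *Nnat*) ran from 9.50 in BXD90 to 11.8 in BXD61, the strain with the highest *Arntl*. It had r = 0.59 with *Arntl*, -0.48 with *Per3*, -0.43 with *Nr1d2* and -0.36 with *Nr1d1* (n = 35). Without BXD61 and BXD96 these were 0.46, -0.33, -0.42 and -0.17. With the other clock genes r over all 35 strains lay between -0.32 (*Dbp*) and 0.25 (*Clock*), and was -0.02 with *Per2*. Of the 5 genes *Retn* had r = -0.21 with *Arntl*, and the others lay between 0.42 and 0.64. With this list as a covariate, chosen after the values were seen, 3 of the 9 other clock genes were called with *Arntl*, and those 3 were all the transcripts called. Of the 8 pairs 5 were then called, namely *Arntl* with *Nr1d1*, *Nr1d2* and *Dbp*, and *Nr1d2* with *Nr1d1* and *Dbp*.

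The mean of 6 skeletal muscle genes ran from 10.6 in BXD65 to 14.2 in BXD97 and had r = 0.38 with *Arntl* and -0.37 with *Nr1d1*. Without BXD65 and BXD95 these were 0.31 and -0.21. With the muscle list as a covariate 4 of 9 clock genes were called with *Arntl*, among 19 of all transcripts. Of those 19, 11 were among the 25 called without that covariate. The pairs called were 6. The liver list (6 genes) ran from 7.25 to 12.7 in BXD70, where liver transcripts such as *Alb* (14.96) stood apart, and was 11.1 in DBA/2J. Its r with *Dbp* was -0.31, and 0.01 without BXD66 and BXD70, and without BXD70 alone 7 of the 8 pairs were called, all but *Per3* with *Nr1d2*. Brown fat genes (6 genes, 12.4 to 13.9), blood genes (3 of 4 found, 7.43 to 8.38) and lymphocyte genes (4 genes, 7.20 to 7.82) had r of -0.05, 0.10 and -0.01 with *Arntl*. The blood genes had r = -0.36 with *Dbp* and -0.29 with *Nr1d2*, and -0.40 and -0.33 without BXD65 and BXD101. The lymphocyte genes had their largest absolute r with *Clock*, 0.32, as did the brown fat genes, 0.22. Without BXD70 and BXD87 the brown fat genes had r = 0.33 with *Dbp*, 0.30 with *Clock* and -0.23 with *Arntl*. Their members differed, as *Ucp1* had r = 0.53 with *Clock* and 0.11 with *Arntl*, and *Cidea* -0.14 and -0.48. The adjusted limma p-values were 0.13 for *Ucp1* with *Clock* and 0.27 for *Cidea* with *Arntl*. The part of these cells in the clock genes' values was not tested beyond these fits.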

How the data were processed

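RNA from BAT of 35 BXD strains and both parents was measured on 1 MoGene 2.0 array per strain, with 100 ng of RNA and 5500 ng of cDNA per pool, per the labels. The deposited matrix (41345 probe sets, 37 arrays) holds scores, which the authors made by rescaling each array to a mean of 8 and an SD of 2. The submitters' processing notes name Affymetrix Expression Console, while the log base and summary method are not given in the sources used here. Such rescaling can stretch or shrink an array, so other scalings were tried. Array controls (190 probe sets) were left out, and columns not matched to a strain numbered 0. Arrays have no read depth, and their number limits the precision.

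Each clock gene was a continuous covariate in limma 3.58.1 (lmFit, eBayes, R 4.3.3) over the 35 BXD strains, with Benjamini-Hochberg adjustment over all 41154 other transcripts and a threshold of 0.05. These fits were also tested on simulated data. Correlations are Pearson's r and Spearman's rho with 100000 permutations (two-sided), and were repeated without the 2 strains farthest from the median of the first gene or list. The groups of strains were taken from the labels, and p-values measure the spread between strains, each a pool. The remaining steps ran in Python 3.11.15 (scipy 1.17.1, numpy 2.4.6, matplotlib 3.10.9, pandas 2.3.3).

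Members and lists were chosen with earlier results of these data known. Named are the members, the listed clock, stress, immediate early, fasting and marker genes, the 5 symbols of smallest adjusted p in each direction for *Arntl* and *Dbp*, the strains with the 3 highest and 3 lowest values, and the transcripts nearest to single members. *Cpt1b* and *Hba-a1* were not found by symbol, and 1 listed clock gene and 1 fasting gene are counted with their lists but not reported here on their own. Promoters came from a RefSeq table of GRCm38.p6, and no gene coordinates are given, as the array table names no build. The alternatives were both parents included, quantile normalization, centring on the median, a covariate for skeletal muscle or for principal component 1 of all transcripts, ranks, the mean of probe sets, a filter on dim transcripts, a stricter threshold and strains left out. The white fat covariate and the element AGTAGGTNA were added after seeing the values.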

Additional observations from a re-analysis of the deposited data

How the results depend on the processing

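The signs of the clock gene pairs changed little. Across arms, 19 or 20 of 21 pairs were below 0 under every alternative in which signs were counted, and within arms 21 to 23 of 24 were above 0. Signs were not counted for ranks, the filter on dim transcripts or the stricter threshold. With a covariate the sign is that of the slope in the fit. Of the 8 called pairs, 3 remained without the 2 strains farthest from each gene's median (the 3 pairs of *Arntl*, *Nr1d1* and *Nr1d2*) and 5 with the white fat list as a covariate, while the other alternatives gave 6 to 10. Clock genes called with *Dbp* went from 3 to 0 without the farthest strains.

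The number of all transcripts called was the least stable result, and the cause was not tested. With *Arntl* it was 25, of which 36% had slopes above 0. It was 56 after quantile normalization, 12 after centring on the median (3 above 0 and 9 below 0), 38 with the mean of probe sets, 141 without dim transcripts, 5 without the farthest strains, and 3 with the white fat list, with the first principal component or at an adjusted p of 0.01. With *Dbp* it was 3, and 7 with both parents or after centring, 5 with the muscle list, 6 without dim transcripts and 0 without the farthest strains. Of the 22 other clock-related genes, the 1 called with *Arntl* became 0 with the white fat list, with the first principal component, without the farthest strains and at 0.01. With *Dbp* there was none, and 2 with both parents, after centring or without dim transcripts and 1 with the muscle list.

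Leaving out 1 strain at a time gave 3 to 54 transcripts with *Arntl*, 2 to 5 with *Dbp* (5 without BXD71 or BXD96), 6 to 10 pairs, and 0 to 1 other clock-related genes with *Arntl* and with *Dbp* alike. Of 410 repeated ranges of single clock genes, 403 moved by less than the SD over strains, but most of them could not move. Leaving out a strain that is neither lowest nor highest keeps a range unchanged. So does averaging over 1 probe set, or adding parents that lie inside the range. The ranges that did move were of *Npas2*, *Tef* and *Per1*, mostly where a lowest or highest strain was left out. The 30 parental differences moved by less than that SD and kept their sign, and averaging over probe sets could change only that of *Tef*. No paired analysis was possible because the BXD and parental groups share fewer than 2 replicate numbers, and these only count arrays within a group.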

Other observations

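Some transcripts outside the clock lists were nearest to members that called none. For *Npas2* these were *Dpy19l4* (r = -0.65), *Dlg1* (-0.65), *Fam133b* (-0.65) and *Runx1t1* (0.62), over 35 BXD strains. For *Per1* they were *Tob2* (r = 0.64), an antiproliferative factor, and *Map3k6* (0.62), a kinase of the stress pathways. For *Per2* they were *Tbc1d20* (r = 0.68), *Arid2* (0.67), a subunit of a chromatin remodelling complex, *Zfx* (0.64) and *Acer2* (0.63), a ceramidase. Beside *Per3* and *Nfil3*, *Tef* was nearest to *Cln6* (r = 0.63) and *Pxmp2* (0.61), a protein of the peroxisome membrane. The adjusted p-values in limma were 0.24 to 0.57.

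*Bhlhe40*, a clock repressor that is also induced by many stimuli, was 12.2 in C57BL/6J, above the BXD range of 10.2 to 11.95, and 11.7 in DBA/2J.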
